A study of Homo sapiens with 20 samples.

Results

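Nucleotide excision repair (NER) removes bulky and helix-distorting DNA lesions, among them the intrastrand crosslinks left by cisplatin. The expression of 33 genes of this pathway was followed, a list drawn up by function. Of these, 29 had a transcript cluster of their own among the 18417 genes measured, each gene being represented by its cluster with the highest mean over the 20 arrays. The other 4, ERCC5 (the XPG nuclease), ERCC6 (the CSB remodeller of the transcription-coupled branch), GTF2H2 (a TFIIH subunit) and HMGB1 (a protein that binds platinum-bent DNA), share every one of their clusters with other gene symbols and were not measured here.

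The cells were MDA-MB-231, an established human triple-negative breast cancer line that carries a mutant p53. They received 36 µM cisplatin (Cis), 10 µM ammonium tetrathiomolybdate (TM), a copper chelator, or both drugs (Cis/TM), for 12 h or 24 h, and the study asked whether copper chelation sensitizes tumour cells to cisplatin. The 20 arrays comprised 2 of TM 12 h and 3 of each of the other 6 groups (Control, given vehicle according to the methods, TM 24 h, and both times of Cis and of Cis/TM), all of the Affymetrix Human Gene 1.0 ST type and all of the same line, with no difference in genotype between groups. The 3 Control arrays carry no time in the labels and served for both times, so all comparisons with Control share them, and a change of untreated cells with time in culture cannot be told apart from a difference between 12 h and 24 h of treatment. The methods describe cells treated in triplicate wells. Whether these belong to separate experiments is not stated, and the p-values cover only the spread between such wells.

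NER has separate ways of finding a lesion. In the global-genome branch XPC, with RAD23B and centrin 2 (CETN2), finds distorted helices anywhere in the genome, helped by the DDB1-DDB2 sensor. In the transcription-coupled branch an RNA polymerase II that has stalled at a lesion is the signal, read by CSB and CSA (ERCC8) with UVSSA, USP7 and the elongation factor ELOF1. Both branches then hand over to TFIIH, which opens the helix, to XPA, which verifies the lesion, and to the ERCC1-ERCC4 and XPG nucleases, which cut out the damaged strand.

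The values are log2 intensities summarized with RMA. Calls of up- and downregulation needed a limma p under 0.05 after adjustment over all 18417 genes together with more than a 1.5-fold change, that is a log2 difference over 0.585. The median of an array ran from 5.71 to 5.94 over these genes, and the median standard error of a difference from Control was 0.135, or 0.151 for TM 12 h. Since RMA brings arrays to a common scale, less RNA per cell and fewer cells cannot be told apart from these values, and levels are compared only within a gene. Groups of 2 or 3 arrays often do not overlap. Of the 18417 genes, 4432 lay wholly above Control in Cis 12 h and 4295 wholly below. In TM 12 h these were 4712 and 4500. The line's mesenchymal markers VIM, CD44, MSN, CAV1, AXL and FN1 had mean levels at percentiles 89.6 to 99.5 of all genes, and ESR1, PGR, CDH1, PTPRC, CD3E, CDH5 and PECAM1 at percentiles 2.1 to 25.8. Of the luminal markers that the line should lack, GATA3, FOXA1 and EPCAM stood higher, at percentiles 52.8, 56.3 and 81.2, and their part in the results was not tested.

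The genes whose values moved most had the promoters printed here, because the results turn on these genes. Each run holds the 250 bases before the start of the gene in RefSeq (GRCh38.p14), written 5′ to 3′ on the gene's own strand. Capitals mark exact matches, on either strand, to the motif GGGCGG of Sp1-type factors, to CCAAT as read by NF-Y, or to the ETS motif CCGGAAG.
ELOF1 (chr19:11559231-11559480, minus strand): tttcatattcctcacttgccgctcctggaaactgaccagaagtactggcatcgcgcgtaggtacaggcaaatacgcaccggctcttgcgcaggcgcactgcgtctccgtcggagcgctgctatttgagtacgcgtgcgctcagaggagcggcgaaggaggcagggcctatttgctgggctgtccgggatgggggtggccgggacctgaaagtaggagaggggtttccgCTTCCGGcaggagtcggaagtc
XAB2 (chr19:7629546-7629795, minus strand): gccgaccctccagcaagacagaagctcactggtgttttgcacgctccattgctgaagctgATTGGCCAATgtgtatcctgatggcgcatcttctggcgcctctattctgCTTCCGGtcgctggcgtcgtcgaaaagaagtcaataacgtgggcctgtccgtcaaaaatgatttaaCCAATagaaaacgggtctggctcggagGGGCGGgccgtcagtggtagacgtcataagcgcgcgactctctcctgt
DDB2 (chr11:47214204-47214453, plus strand): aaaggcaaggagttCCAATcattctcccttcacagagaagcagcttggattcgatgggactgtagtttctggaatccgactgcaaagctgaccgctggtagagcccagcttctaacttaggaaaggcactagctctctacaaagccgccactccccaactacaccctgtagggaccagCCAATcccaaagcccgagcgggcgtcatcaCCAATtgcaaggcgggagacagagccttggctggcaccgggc
INO80 (chr15:41116281-41116530, minus strand): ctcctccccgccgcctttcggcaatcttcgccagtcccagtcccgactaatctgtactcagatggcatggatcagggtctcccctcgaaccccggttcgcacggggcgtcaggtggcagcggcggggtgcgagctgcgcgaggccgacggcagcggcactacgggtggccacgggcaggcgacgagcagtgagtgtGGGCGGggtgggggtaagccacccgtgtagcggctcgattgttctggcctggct
MNAT1 (chr14:60734511-60734760, plus strand): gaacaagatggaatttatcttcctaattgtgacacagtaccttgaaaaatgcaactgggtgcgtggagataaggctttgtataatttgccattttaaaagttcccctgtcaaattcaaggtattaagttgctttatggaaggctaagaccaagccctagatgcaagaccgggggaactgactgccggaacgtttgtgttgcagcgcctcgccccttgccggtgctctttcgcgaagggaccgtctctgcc
ELOF1 and XAB2, the genes with the widest range of values, each held an ETS match, and in XAB2 the run ATTGGCCAAT is a pair of adjacent CCAAT matches on opposite strands that share no base. DDB2 held CCAAT matches only, INO80 held GGGCGG, and MNAT1 held none of these letters. None of the 5 windows matched the p53 half-site, and nothing about p53 follows from that.

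Across the 6 comparisons with Control the 29 genes gave 174 tests, of which 27 were called higher and 6 lower. By gene, 9 were called only upward, 3 only downward, none in both directions, and 17 were never called. These totals were not counted over all genes and only describe the list. Shares of all genes follow for each comparison. In Cis 12 h, 8 of the 29 were upregulated and 3 downregulated, where 14.8% of all genes were called higher and 10.8% lower. In Cis/TM 12 h, 6 were upregulated and 3 downregulated, against 15.2% and 8.55% of all genes, and in TM 12 h 4 were upregulated and 0 downregulated, against 8.99% and 3.11%. For Cis 12 h that is 27.6% of the repair genes higher and 10.3% lower. The excess of higher calls depended on the scaling, since after quantile normalization 5 of the 29 were higher and 3 lower, beside 12.1% and 11.8% of all genes, and in TM 12 h the count went from 4 and 0 to 2 and 2. Of all genes in TM 12 h, 6.04% were then higher and 3.21% lower.

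At 24 h fewer were called. In Cis 24 h, 6 were upregulated and none downregulated, beside 11.5% and 4.9% of all genes. TM 24 h had 2 upregulated and none downregulated, beside 5.16% and 2.55%, and Cis/TM 24 h had 1 and none, beside 4.54% and 2.48%. The single gene left in Cis/TM 24 h was DDB2.

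**Figure D1:**
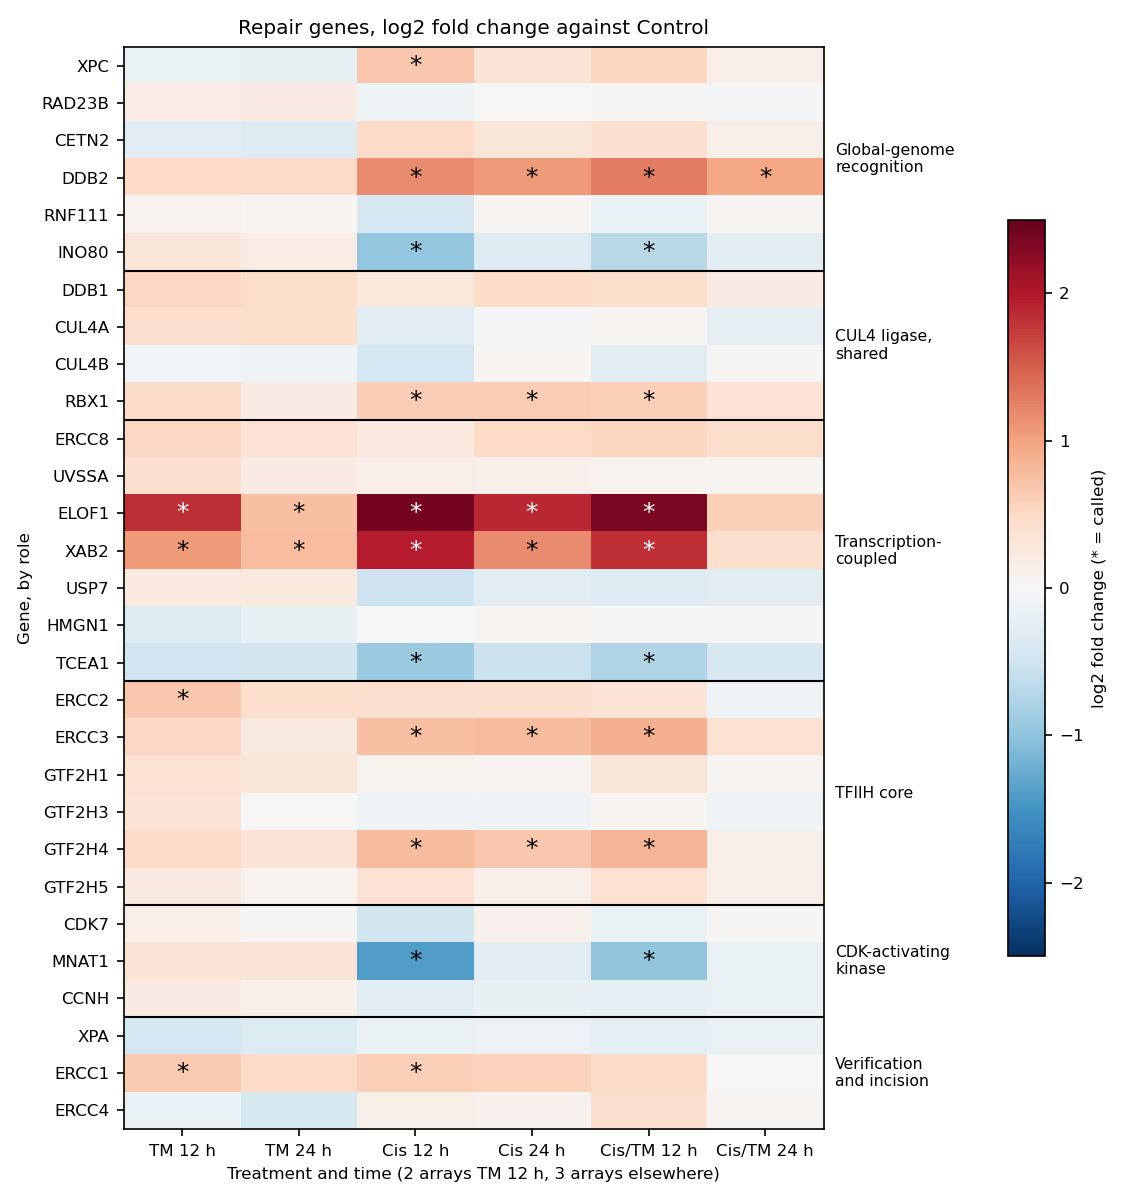
Log2 fold change against Control of the 29 measured repair genes (rows, grouped by role) in the 6 treatments (columns), from blue (lower) through white to red (higher), with a star where the gene was called. ELOF1 reached 2.39 and XAB2 1.96 in Cis 12 h, DDB2 carried a star in all 4 groups with cisplatin, and MNAT1, INO80 and TCEA1 were called lower only at 12 h with cisplatin.

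Among the 6 genes of global-genome recognition, DDB2, the subunit of the UV-damaged DNA-binding complex that touches the lesion and a textbook p53 target, rose in every group that received cisplatin. Its values were 6.01, 5.68 and 6.04 in Control, 6.89, 7.19 and 7.21 in Cis 12 h, with 7.42, 7.06 and 7.06 in Cis/TM 12 h. At 24 h they were 7.06, 6.95 and 6.92 in Cis and 7.09, 6.88 and 6.66 in Cis/TM. Every cisplatin array lay above every Control array. The log2 fold changes were 1.19 ± 0.13 (SE, adjusted p = 4.0e-07) in Cis 12 h, 1.27 ± 0.13 (SE, adjusted p = 2.1e-07) in Cis/TM 12 h, 1.07 ± 0.13 (SE, adjusted p = 4.6e-06) in Cis 24 h and 0.97 ± 0.13 (SE, adjusted p = 5.4e-05) in Cis/TM 24 h, so a rise of 2.28-fold at 12 h stood at 2.1-fold at 24 h.

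With TM alone DDB2 was measured at 6.32 and 6.48 after 12 h, with 6.35, 6.44 and 6.37 after 24 h, between Control and the cisplatin arrays without overlap. These differences from Control, 0.49 (adjusted p = 0.0194) and 0.48 (adjusted p = 0.0144), passed the threshold on adjusted p and not that on fold. DDB2 was also higher in Cis than in TM, by 0.70 ± 0.15 (SE, adjusted p = 0.00115) at 12 h and 0.59 ± 0.13 (SE, adjusted p = 0.00315) at 24 h. The first of these came to 0.58 with each array centred on its median, just under the fold threshold, and the second to between 0.50 and 0.57 after quantile normalization, with the trend with level removed, or without TM 24 h A or Cis 24 h A.

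XPC, the protein that finds the distorted helix, was read at 5.61, 6.10 and 6.09 in Control and 6.39, 6.73 and 6.68 in Cis 12 h, with 6.71, 6.53 and 6.19 in Cis/TM 12 h. Cis 12 h lay wholly above Control and Control A was the lowest array of its group. The rise of 0.67 ± 0.14 (SE, adjusted p = 5.2e-04) in Cis 12 h was called, but it came to 0.51 without Control A or after quantile normalization and to 0.44 with the trend with level removed. In Cis 24 h XPC stood at 6.26, 6.29 and 6.26, a difference of 0.33 (adjusted p = 0.0663) that was not called, and TM left it at 5.69 and 5.86 and 5.68, 5.70 and 5.86, within the range of Control. Cis exceeded TM at 12 h by 0.83 ± 0.15 (SE, adjusted p = 3.4e-04).

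CETN2, centrin 2, the calcium-binding partner of XPC, ran in opposite directions under the drugs without being called against Control in either. Control gave 9.35, 9.65 and 9.46, Cis 12 h 9.86, 10.12 and 9.94 and TM 12 h 9.26 and 9.15, and at 24 h Cis gave 9.75, 9.84 and 9.76 and TM 9.24, 9.03 and 9.20. The Cis arrays lay above Control and the TM arrays below it at both times. Cis exceeded TM by 0.77 ± 0.12 (SE, adjusted p = 5.2e-05) at 12 h and by 0.63 ± 0.11 (SE, adjusted p = 2.9e-04) at 24 h, the latter falling to 0.56 without TM 24 h B or with the trend with level removed.

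INO80, the ATPase of a chromatin remodeller that opens damaged chromatin for repair, moved the other way. Its values were 7.86, 7.95 and 7.92 in Control, 6.60, 7.13 and 7.09 in Cis 12 h, with 7.29, 7.12 and 7.24 in Cis/TM 12 h. All 6 of these treated arrays lay below Control, and Cis 12 h A was the lowest. INO80 fell, with log2 fold changes of −0.96 ± 0.14 (SE, adjusted p = 7.8e-06) in Cis 12 h and −0.69 ± 0.14 (SE, adjusted p = 3.4e-04) in Cis/TM 12 h. By 24 h the values were 7.73, 7.61 and 7.40 in Cis and 7.80, 7.52 and 7.63 in Cis/TM, still below Control on each array but no longer called.

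In TM, INO80 read 8.27 and 8.17 at 12 h, with 7.89, 8.08 and 8.31 at 24 h, within or above the range of Control, and Cis lay below TM at 12 h by −1.28 ± 0.15 (SE, adjusted p = 2.2e-06). The other 2 genes of this branch, RAD23B and RNF111, were not called in any comparison. With each array centred on its median RNF111 was called lower in Cis 12 h than in TM 12 h (−0.63). It was then also called higher in Cis 24 h than in Cis 12 h (0.59). RAD23B, which stabilizes XPC, had the smallest range of group means of all 29 genes, at 0.317. Its arrays gave 8.31, 8.28 and 8.25 in Control and 8.09, 8.23 and 8.20 in Cis 12 h, a difference of −0.10 (95% confidence interval −0.29 to 0.09). RNF111, a ubiquitin ligase that acts on modified XPC, had differences from Control between −0.42 in Cis 12 h and 0.10 in TM 12 h.

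The 4 genes of the CUL4 ubiquitin ligase serve both branches, as this ligase carries DDB2 in one and CSA in the other. RBX1, its RING subunit, was called higher in Cis 12 h, Cis/TM 12 h and Cis 24 h. Control gave 9.95, 9.74 and 9.81, Cis 12 h 10.43, 10.47 and 10.46, Cis/TM 12 h 10.36, 10.46 and 10.44 and Cis 24 h 10.42, 10.45 and 10.52. The cisplatin arrays were tightly grouped above Control in each case. The differences were 0.62 ± 0.09 (SE, adjusted p = 9.8e-06), 0.59 ± 0.09 (SE, adjusted p = 2.1e-05) and 0.63 ± 0.09 (SE, adjusted p = 2.2e-05), all close to the fold threshold, and none stayed past it after quantile normalization (0.46 to 0.54), with the trend with level removed or without Control B (0.57, 0.54 and 0.58). That of Cis/TM 12 h also came to 0.57 or 0.58 without Control C, Cis/TM 12 h B or Cis/TM 12 h C, and that of Cis 12 h to 0.57 with median centring. In TM 12 h RBX1 read 10.16 and 10.41, also above Control. That difference of 0.45 was not called, nor was the one of 0.20 in TM 24 h.

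CUL4A, the scaffold, and its paralogue CUL4B, together with DDB1, the adaptor, were not called against Control in any group. With each array centred on its median DDB1 was called higher in TM 12 h (0.59). CUL4A read 8.20, 8.20 and 8.30 in Control, 7.70, 8.14 and 8.09 in Cis 12 h, with 8.74 and 8.57 in TM 12 h. The TM arrays lay above Control and the Cis arrays below, with Cis 12 h A the lowest. Between the drugs it was lower in Cis by −0.68 ± 0.13 (SE, adjusted p = 4.9e-04) at 12 h, and by 0.54 without Cis 12 h A, which is under the fold threshold. CUL4B differed from Control by −0.43 in Cis 12 h and by 0.05 in Cis 24 h.

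Within the transcription-coupled branch, ELOF1, a small elongation factor that rides on RNA polymerase II and is needed for ubiquitination of the stalled enzyme, showed the widest range of group means of the 29 genes. Control arrays read 6.70, 6.02 and 5.88, Cis 12 h 8.29, 8.99 and 8.48, TM 12 h 8.04 and 8.07 and Cis/TM 12 h 8.82, 8.40 and 8.42. All 8 arrays treated for 12 h lay well above the highest Control array, which was Control A. The log2 fold changes were 2.39 ± 0.22 (SE, adjusted p = 2.9e-08) in Cis, 1.85 ± 0.24 (SE, adjusted p = 2.6e-05) in TM and 2.35 ± 0.22 (SE, adjusted p = 4.9e-08) in Cis/TM, or 5.23-fold, 3.62-fold and 5.1-fold.

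After 24 h ELOF1 separated the treatments. Cis 24 h read 8.46, 7.93 and 7.88, TM 24 h 6.60, 7.18 and 7.04 and Cis/TM 24 h 6.96, 6.78 and 6.65. Cis stayed far above Control, while TM and Cis/TM overlapped Control through Control A. The difference from Control was 1.89 ± 0.22 (SE, adjusted p = 2.0e-06) in Cis, 0.74 ± 0.22 (SE, adjusted p = 0.0196) in TM and 0.60 ± 0.22 (SE, adjusted p = 0.0597) in Cis/TM, the last not called. The call in TM 24 h was lost without TM 24 h B or C or Control B or C, at differences of 0.59 to 0.69, and when only the arrays of the 2 groups were fitted (adjusted p = 0.0962).

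XAB2, an XPA-binding protein that also belongs to the splicing machinery, had the same order of group means as ELOF1. It read 5.91, 6.00 and 6.26 in Control, 7.78, 8.35 and 7.93 in Cis 12 h, 7.11 and 7.14 in TM 12 h, then 8.23, 7.54 and 7.91 in Cis/TM 12 h. At 24 h it read 7.43, 7.38 and 6.91 in Cis, 6.79, 6.76 and 6.96 in TM and 6.64, 6.45 and 6.31 in Cis/TM. Every treated array lay above every Control array. The rise was 1.96 ± 0.17 (SE, adjusted p = 2.4e-08) in Cis 12 h and 1.07 ± 0.20 (SE, adjusted p = 5.5e-04) in TM 12 h, and it was called in all groups except Cis/TM 24 h, where the difference was 0.41 (adjusted p = 0.105). XAB2 was higher in Cis than in TM at 12 h by 0.89 ± 0.20 (SE, adjusted p = 0.00152), and ELOF1 at 24 h by 1.15 ± 0.22 (SE, adjusted p = 7.8e-04).

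**Figure D2:**
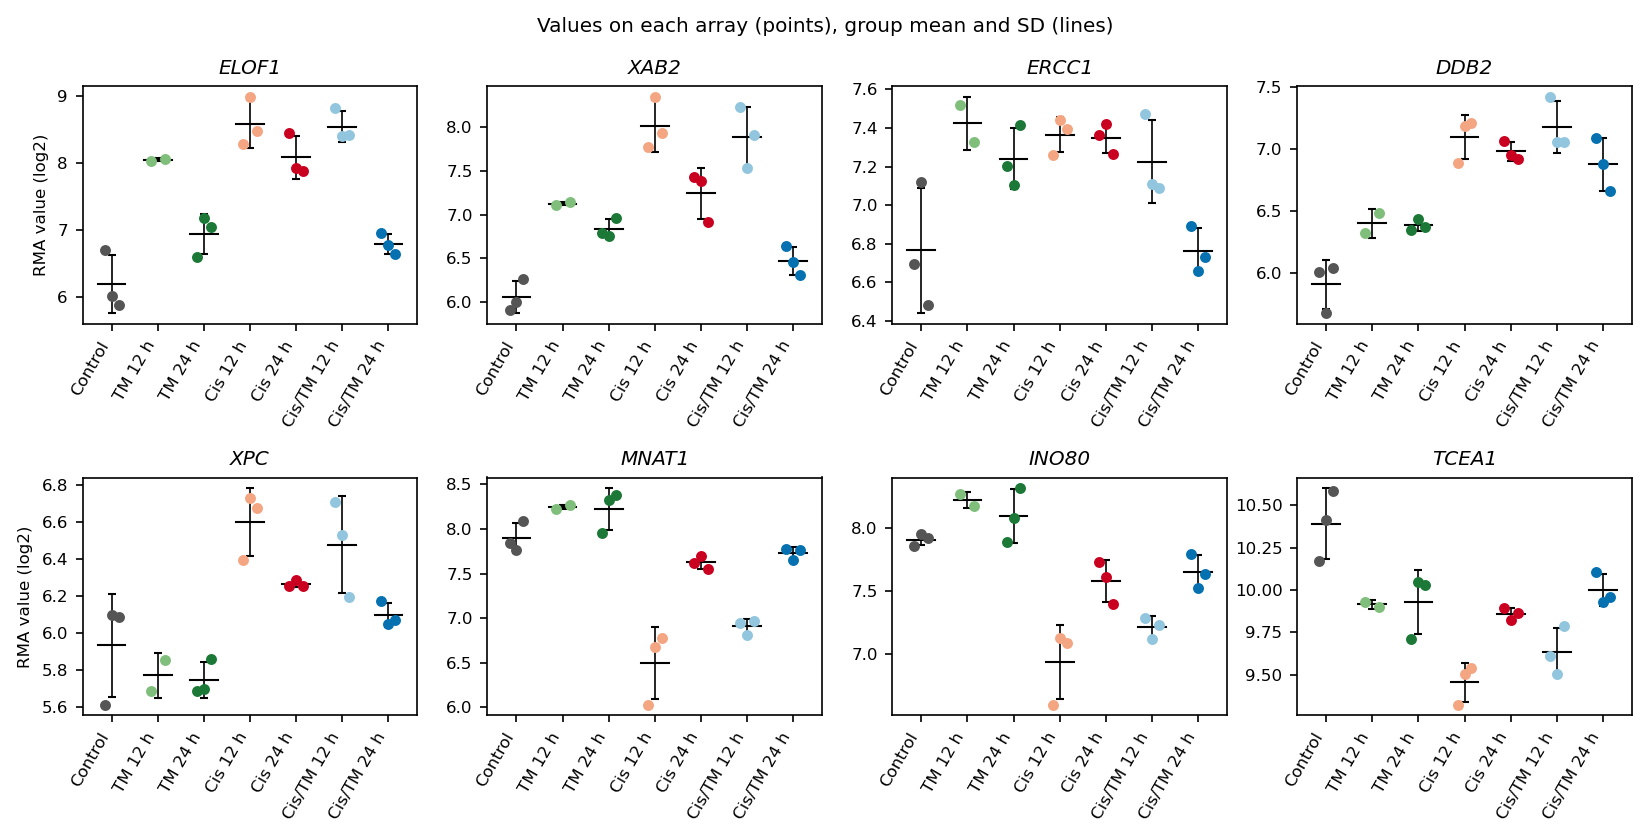
RMA log2 value (y axis, a separate scale for each gene) of 8 repair genes on each array (points) in the 7 groups (x axis), with the group mean and SD as lines. In the panel of ELOF1 all arrays of TM 12 h, Cis 12 h, Cis 24 h and Cis/TM 12 h lie at or above 7.88, whereas Cis/TM 24 h lies between 6.65 and 6.96, and in the panel of MNAT1 only Cis 12 h and Cis/TM 12 h lie below 7.

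TCEA1, the factor TFIIS that lets a backtracked polymerase resume, was the transcription-coupled gene that fell. It read 10.17, 10.41 and 10.59 in Control, 9.32, 9.50 and 9.54 in Cis 12 h, with 9.61, 9.51 and 9.79 in Cis/TM 12 h. The treated arrays lay below Control without overlap. The log2 fold change was −0.94 ± 0.12 (SE, adjusted p = 1.9e-06) in Cis 12 h and −0.76 ± 0.12 (SE, adjusted p = 2.9e-05) in Cis/TM 12 h. In the other 4 groups TCEA1 differed from Control by −0.48 (TM 12 h), −0.46 (TM 24 h), −0.53 (Cis 24 h) and −0.39 (Cis/TM 24 h), none of them past the fold threshold, though after quantile normalization TM 12 h came to −0.63 and Cis 24 h to −0.65 and both were called. A second cluster of TCEA1 gave group means of 9.06 in Cis 12 h and 9.24 in Cis/TM 12 h, against 9.93 in Control.

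USP7, the deubiquitinase that protects CSB, was not called against Control but separated the drugs. It read 10.39, 10.35 and 10.37 in Control, 9.57, 10.02 and 9.98 in Cis 12 h, with 10.67 and 10.56 in TM 12 h. Cis arrays lay below Control and TM arrays above it, which gave a difference between Cis and TM of −0.76 ± 0.12 (SE, adjusted p = 3.7e-05). ERCC8 (CSA, the substrate receptor that joins the CUL4 ligase to the stalled polymerase), UVSSA (the adaptor that brings TFIIH) and HMGN1 (a nucleosome-binding protein) were never called. ERCC8 differed from Control by 0.24 in Cis 12 h to 0.54 in Cis/TM 12 h, UVSSA by 0.07 (Cis/TM 24 h) up to 0.41 (TM 12 h), and HMGN1 by −0.35 in TM 12 h to 0.05 in Cis 24 h.

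The branches gave these counts side by side. In Cis 12 h, where 14.8% of all genes were called higher and 10.8% lower, 2 of 6 global-genome genes (XPC, DDB2) were called higher and 1 (INO80) lower, and 2 of 7 transcription-coupled genes (ELOF1, XAB2) were called higher and 1 (TCEA1) lower. In TM 12 h and in TM 24 h no global-genome gene was called, and ELOF1 and XAB2 were called higher, beside 8.99% and 5.16% of all genes. DDB2 differed there by 0.49 and 0.48, short of the fold threshold only. The TM 24 h call of ELOF1 was lost without any of several single arrays. In Cis/TM 24 h DDB2 was called higher and no transcription-coupled gene was, beside 4.54% of all genes. These counts come from few genes, and no test of the difference between branches was made.

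Over the 6 global-genome genes the median log2 fold change was 0.19, 0.14 and 0.21 after 12 h of cisplatin, TM and both drugs. Over the 7 transcription-coupled genes it was 0.17, 0.41 and 0.08, and over all genes −0.01, −0.04 and −0.05. In the transcription-coupled branch only ELOF1 and XAB2 were called higher in any comparison with Control. The median of 0.41 in TM 12 h did not rest on them alone. ERCC8 (0.52), UVSSA (0.41) and USP7 (0.24) were above Control there as well, and HMGN1 (−0.35) and TCEA1 (−0.48) below it. ERCC6, the gene that gives the branch its first step, is not part of these counts.

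TFIIH is the complex that both branches share. In Cis 12 h ERCC3 and GTF2H4 of its 6 core genes were called higher and MNAT1 of its 3 kinase genes lower, beside 14.8% and 10.8% of all genes. With TM alone no gene of the kinase was called. In the core, ERCC3 (XPB, the translocase) read 7.59, 7.98 and 7.85 in Control, 8.26, 8.89 and 8.54 in Cis 12 h, 8.80, 8.58 and 8.68 in Cis/TM 12 h, with 8.80, 8.51 and 8.47 in Cis 24 h. All 9 of these treated arrays lay above Control. It rose by 0.76 ± 0.14 (SE, adjusted p = 1.5e-04), 0.88 ± 0.14 (SE, adjusted p = 3.3e-05) and 0.79 ± 0.14 (SE, adjusted p = 2.0e-04), and differed from Control by 0.37 (adjusted p = 0.0669) in Cis/TM 24 h, which was not called. In TM 12 h ERCC3 read 8.31 and 8.35, also above Control. That difference of 0.53 was not called, but was with each array centred on its median (0.59).

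GTF2H4, the subunit that anchors ERCC3 in the complex, read 5.36, 5.67 and 4.82 in Control, 6.00, 6.26 and 5.95 in Cis 12 h, 6.17, 6.12 and 6.09 in Cis/TM 12 h, with 5.93, 6.06 and 5.87 in Cis 24 h. Treated arrays lay above Control, whose 3 arrays spread widely with Control C the lowest. The rises were 0.79 ± 0.16 (SE, adjusted p = 5.2e-04), 0.84 ± 0.16 (SE, adjusted p = 3.0e-04) and 0.67 ± 0.16 (SE, adjusted p = 0.00324). Without Control C those of Cis 12 h and Cis 24 h came to 0.56 and 0.44, under the fold threshold. In TM 12 h GTF2H4 read 5.78 and 5.76, also above Control, a difference of 0.49 that was not called.

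ERCC2 (XPD, the helicase that opens the helix around the lesion) was called higher in TM 12 h only. It read 5.89, 6.94 and 6.52 in Control, 7.12 and 7.11 in TM 12 h, with 6.76, 7.03 and 6.83 in Cis 12 h. Control A lay far below the other Control arrays, and the call of 0.67 ± 0.20 (SE, adjusted p = 0.0171) dropped to 0.39 without it, under the fold threshold. It was lost as well without either array of TM 12 h, after quantile normalization, with the trend with level removed and when only the compared groups were fitted (adjusted p from 0.0656 to 0.167 over these settings, including the one without Control A).

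The other core subunits were not called. GTF2H1 read 8.95, 9.12 and 9.22 in Control and 8.87, 9.43 and 9.26 in Cis 12 h, and GTF2H5, the smallest subunit, 9.40, 9.75 and 9.89 and 10.04, 9.96 and 10.11. The groups overlapped in GTF2H1, and in GTF2H5 the Cis arrays lay just above a wide Control group. With RAD23B these genes had the 3 smallest ranges of group means, at 0.388 for GTF2H1 and 0.381 for GTF2H5. Cis 12 h differed from Control by 0.09 (95% confidence interval −0.15 to 0.33) for GTF2H1 and by 0.36 (95% confidence interval 0.10 to 0.61) for GTF2H5. GTF2H3, another core subunit, had differences from Control between −0.12 in Cis 12 h and 0.34 in TM 12 h.

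Of the CDK-activating kinase, which rides on TFIIH and phosphorylates RNA polymerase II, all 3 subunits had negative differences from Control in Cis 12 h and in Cis/TM 12 h. MNAT1 (MAT1, the assembly factor) had the third widest range of the 29 genes. It read 7.84, 7.76 and 8.08 in Control, 6.03, 6.68 and 6.78 in Cis 12 h, with 6.95, 6.81 and 6.97 in Cis/TM 12 h. Both groups lay far below Control, with Cis 12 h A the lowest array. The log2 fold change was −1.40 ± 0.15 (SE, adjusted p = 3.5e-07) in Cis 12 h, 2.64-fold lower, and −0.99 ± 0.15 (SE, adjusted p = 3.0e-05) in Cis/TM 12 h.

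With TM alone MNAT1 was not called. The arrays read 8.23 and 8.27 in TM 12 h, with 7.95, 8.33 and 8.39 in TM 24 h, within or above the range of Control, and Cis lay below TM by −1.75 ± 0.17 (SE, adjusted p = 2.1e-07) at 12 h and −0.60 ± 0.15 (SE, adjusted p = 0.00934) at 24 h. The second of these came to between −0.51 and −0.56 without Cis 24 h C, TM 24 h B or TM 24 h C and with each array centred on its median. CDK7, the kinase itself, read 9.17, 9.27 and 9.21 in Control, 8.62, 8.89 and 8.79 in Cis 12 h, with 9.41 and 9.34 in TM 12 h. All Cis arrays lay below Control and TM, and the difference between Cis and TM was −0.61 ± 0.11 (SE, adjusted p = 3.1e-04), or −0.54 without Cis 12 h A and −0.58 without TM 12 h A, −0.51 after quantile normalization and −0.56 with the trend with level removed, all under the fold threshold. CCNH, the cyclin, was never called, and it differed from Control by −0.26 in Cis 12 h up to 0.21 in TM 12 h.

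In verification and incision only ERCC1, the partner that holds the ERCC4 nuclease at the junction, was called. It read 6.70, 7.12 and 6.48 in Control, 7.26, 7.44 and 7.39 in Cis 12 h, 7.52 and 7.33 in TM 12 h, then 7.47, 7.11 and 7.09 in Cis/TM 12 h. Every Cis 12 h and TM 12 h array exceeded every Control array, and Control was the most scattered of these groups. The difference was 0.60 ± 0.14 (SE, adjusted p = 0.00174) in Cis 12 h and 0.66 ± 0.16 (SE, adjusted p = 0.00517) in TM 12 h, close to the fold threshold. The first was called no longer without Control A, Control C, Cis 12 h B or Cis 12 h C (0.46 to 0.58), nor with median centring (0.55), quantile normalization (0.40) or the trend with level removed (0.37). The second was lost without Control C or TM 12 h A (0.52 and 0.56), after quantile normalization (0.44), with the trend removed (0.50) and with the compared groups only (adjusted p = 0.0832). In Cis 24 h ERCC1 differed from Control by 0.58, just under the fold threshold and not called. With median centring it was called higher there, at 0.63.

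ERCC4 (XPF, the nuclease) read 6.60, 6.62 and 7.13 in Control, 6.60, 7.18 and 6.98 in Cis 12 h, 7.17, 7.13 and 7.26 in Cis/TM 12 h, with 6.24, 6.25 and 6.63 in TM 24 h. Control C lay well above the other Control arrays, and the groups overlapped it or nearly did. No comparison called it, and the largest difference from Control was 0.41 (95% confidence interval 0.08 to 0.73) in Cis/TM 12 h. After quantile normalization its departure from additive log2 changes at 24 h, defined below, was called, at 0.60. XPA, the verification factor, was not called either (but lower in TM 12 h after quantile normalization, at −0.64), and its differences were negative in all 6 groups, from −0.45 in TM 12 h to −0.15 in Cis 24 h.

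Adding TM to cisplatin changed nothing that could be called at 12 h. Of the 29 genes, and of all 18417, 0 were called in Cis/TM 12 h against Cis 12 h by limma, 0% of all genes, while 4 of the 29 and 1732 of all genes had an unadjusted p under 0.05. For ELOF1 the difference was −0.04 (95% confidence interval −0.49 to 0.42), for XAB2 −0.13 (95% confidence interval −0.49 to 0.24), for DDB2 0.08 (95% confidence interval −0.19 to 0.36) and for MNAT1 0.41 (95% confidence interval 0.09 to 0.74). Of these 4 intervals, that of MNAT1 reaches past the fold threshold and the others do not.

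At 24 h, 3 of the 29 were lower in Cis/TM than in Cis and none higher, beside 1.05% and 0.456% of all genes. They were ELOF1, XAB2 and ERCC1. ELOF1 differed by −1.29 ± 0.22 (SE, adjusted p = 0.00712), equal at this rounding to the lowest value of any of the 18417 genes in this comparison, and XAB2 by −0.77 ± 0.17 (SE, adjusted p = 0.0209). ERCC1 read 7.36, 7.42 and 7.26 in Cis 24 h, with 6.89, 6.66 and 6.73 in Cis/TM 24 h, a difference of −0.59 ± 0.14 (SE, adjusted p = 0.0275). For all 3 genes the arrays of Cis 24 h lay above those of Cis/TM 24 h without overlap. The same was true of 3184 of all 18417 genes. All 3 calls depended on single arrays. Without Cis 24 h A, ELOF1 came to −1.11 (adjusted p = 0.052), XAB2 to −0.68 (adjusted p = 0.127) and ERCC1 to −0.58, and XAB2 and ERCC1 were also lost without Cis 24 h B, Cis/TM 24 h B or Cis/TM 24 h C, at −0.70 to −0.77 and −0.54 to −0.57. ERCC1 was lost as well with median centring (adjusted p = 0.0505), after quantile normalization (−0.50) and with the trend with level removed (−0.50).

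Between the single drugs, 4 genes were higher and 5 lower in Cis than in TM at 12 h, beside 6.9% and 10.3% of all genes. XPC, CETN2, DDB2 and XAB2 were the higher ones, and INO80, CUL4A, USP7, CDK7 and MNAT1 the lower ones. At 24 h CETN2, DDB2 and ELOF1 were higher and MNAT1 lower, 3 and 1 genes beside 5.32% and 3.23%. Recognition factors of the global-genome branch made up 3 of the 4 higher genes at 12 h and 2 of the 3 at 24 h. Of the 6 genes of that list, 1 (INO80) was lower at 12 h. The higher calls of DDB2 at both times and of CETN2 at 24 h fell under the fold threshold in other settings.

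The departure from additive log2 changes (the value in Cis/TM less that in Cis and in TM, with Control added back) was below 0 in 19 of the 29 genes at 12 h and in 22 at 24 h. Its median over the 29 genes was −0.17 and −0.239, beside 0.019 and 0.003 over all genes. After quantile normalization these medians were −0.044 and −0.082, beside −0.008 and −0.053. Several genes changed sign there, so the counts below 0 depended on the scaling. At 12 h, 3 genes were called below additive and 1 above, beside 6.87% and 3.43% of all genes, and at 24 h 8 and 1, beside 11.4% and 5.08%. ELOF1 departed by −1.89 ± 0.33 (SE, adjusted p = 1.0e-03) at 12 h and −2.03 ± 0.31 (SE, adjusted p = 1.2e-04) at 24 h, and XAB2 by −1.20 ± 0.26 (SE, adjusted p = 0.0056) and −1.55 ± 0.25 (SE, adjusted p = 1.9e-04). For ELOF1 at 12 h the single drugs gave 2.39 and 1.85 and the pair 2.35, so the pair stood at the level of cisplatin alone. At 24 h the single drugs gave 1.89 and 0.74 and the pair 0.60, the lowest of the 3.

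ERCC1 departed by −0.80 ± 0.21 (SE, adjusted p = 0.0189) at 12 h and −1.06 ± 0.20 (SE, adjusted p = 9.1e-04) at 24 h, where ERCC2 did so by −0.95 ± 0.25 (SE, adjusted p = 0.00905) and GTF2H4 by −0.86 ± 0.23 (SE, adjusted p = 0.0114). DDB1, CUL4A and ERCC3 followed at 24 h with −0.70 (adjusted p = 0.0103), −0.64 (adjusted p = 0.00893) and −0.65 (adjusted p = 0.0229). TCEA1 was the only gene called above additive, by 0.66 (adjusted p = 0.0194) at 12 h and 0.60 (adjusted p = 0.0134) at 24 h. All the departures use the same Control arrays.

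Several of these calls did not hold under every setting. For TCEA1 the 12 h departure was lost without Control C, TM 12 h A, TM 12 h B or Cis/TM 12 h C (0.56 to 0.67), with median centring (adjusted p = 0.0689) and with the compared groups only (adjusted p = 0.0554). Its 24 h departure was lost without Control C, Cis 24 h B, TM 24 h A or Cis/TM 24 h A (0.49 to 0.58), with median centring (0.57) and with the mean of its clusters (0.55). The 12 h call of ERCC1 was lost without TM 12 h A, Cis/TM 12 h B or Cis/TM 12 h C (−0.70 to −0.74), with the trend with level removed (−0.64, adjusted p = 0.0534) and with the compared groups only (adjusted p = 0.0616). At 24 h DDB1 came to −0.53 without Control C and to −0.56 with the trend removed, both under the fold threshold. CUL4A was lost without Cis/TM 24 h B (−0.54), after quantile normalization (−0.46) and with the trend removed (−0.48), and ERCC3 without Control A, TM 24 h C, Cis 24 h A or Cis/TM 24 h B (−0.54 to −0.61), after quantile normalization (−0.47) and with the trend removed (−0.49).

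**Figure D3:**
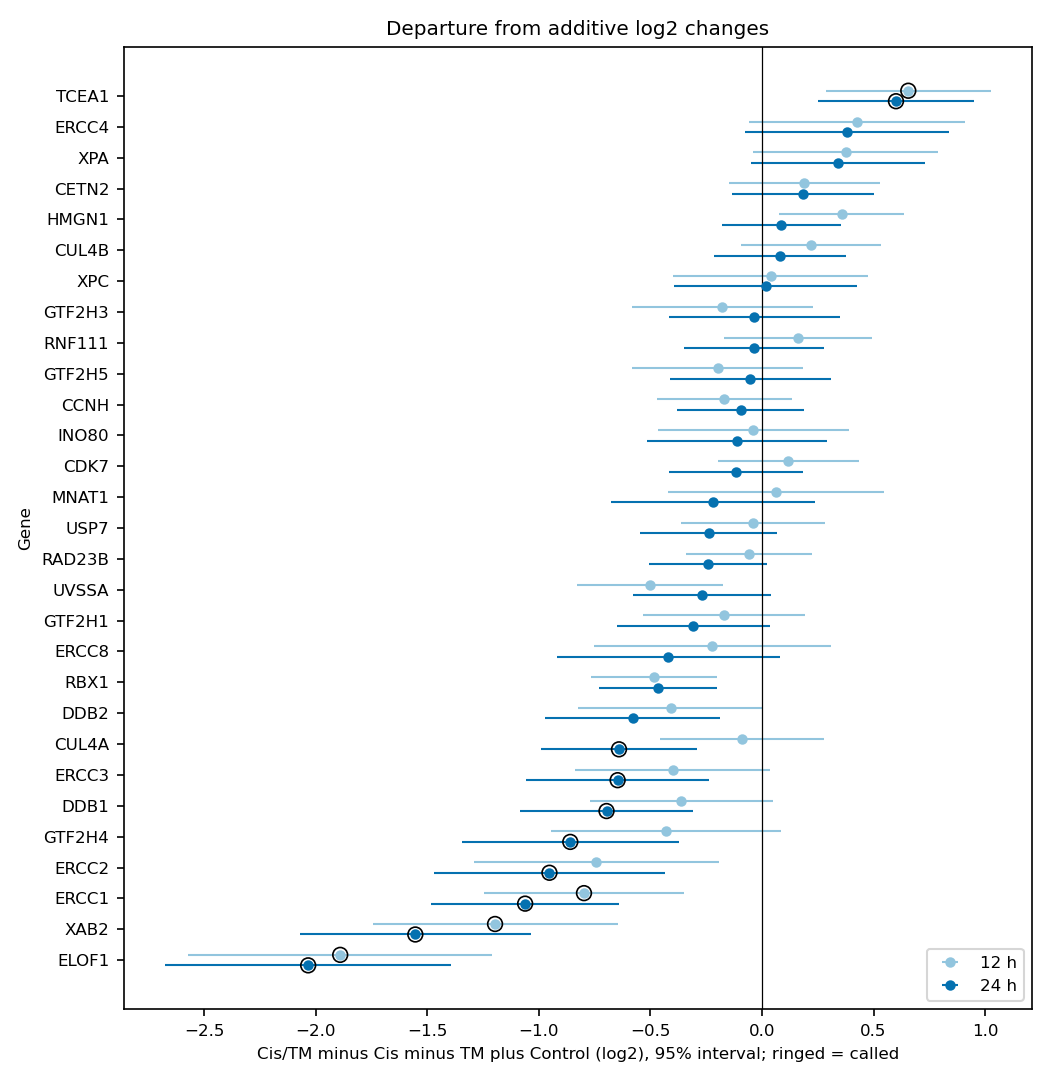
Departure of Cis/TM from the sum of the log2 changes of the single drugs (x axis, log2) for the 29 repair genes (y axis) at 12 h (light blue) and 24 h (dark blue), with 95% confidence intervals as lines and rings around called values. ELOF1 and XAB2 lie farthest to the left at both times, at −1.89 and −1.20 for 12 h and −2.03 and −1.55 for 24 h, and TCEA1 is the only ringed gene to the right of 0.

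DDB1 read 8.88, 8.85 and 8.37 in Control, 9.26, 9.14 and 9.06 in Cis 24 h, 9.13, 9.12 and 9.18 in TM 24 h, then 9.04, 8.85 and 8.80 in Cis/TM 24 h. Each single drug lay above all Control arrays, whereas the pair overlapped the higher ones. In ERCC2 the pair was the lowest of the treated groups, with 7.06, 6.73 and 6.79 in Cis 24 h, 6.85, 6.84 and 6.99 in TM 24 h, but 6.39, 6.23 and 6.44 in Cis/TM 24 h. CUL4A at 24 h read 8.27, 8.27 and 8.09, 8.65, 8.68 and 8.72 and 8.22, 7.81 and 8.02 in the same groups, and only TM lay wholly above Control.

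Between 12 h and 24 h MNAT1 and INO80, both lowered by cisplatin, rose again, and XAB2, which had risen, came down. Under cisplatin alone 2 genes were higher at 24 h than at 12 h, MNAT1 by 1.13 ± 0.15 (SE, adjusted p = 2.2e-05) and INO80 by 0.64 ± 0.14 (SE, adjusted p = 0.00167), and 1 was lower, XAB2 by −0.77 ± 0.17 (SE, adjusted p = 0.00262), beside 7.21% and 3.42% of all genes. The arrays of MNAT1 at 24 h, 7.62, 7.70 and 7.55, all lay above those at 12 h. INO80 came to 0.47 without Cis 12 h A and to 0.56 without Cis 24 h A.

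Under both drugs MNAT1 rose by 0.82 ± 0.15 (SE, adjusted p = 4.0e-04) between the times, to 7.77, 7.65 and 7.77, and ELOF1, XAB2 and GTF2H4 fell by 1.75 (adjusted p = 6.0e-06), 1.42 (adjusted p = 5.7e-06) and 0.70 (adjusted p = 0.00291) on the log2 scale. These were 1 and 3 of the 29 genes, beside 5.67% and 8.07% of all genes. GTF2H4 stood at 5.75, 5.32 and 5.22 in Cis/TM 24 h, wholly below its 12 h arrays. Under TM alone none of the 29 was called between the times by limma, beside 0% higher and 0.00543% lower of all genes, with 3 of the 29 at an unadjusted p under 0.05. ELOF1 was among the uncalled, at −1.11 (95% confidence interval −1.62 to −0.60) with an adjusted p of 0.411.

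Genomic span, a property that took no part in choosing the genes, ran against the changes under cisplatin. Spans were taken from the gene records of RefSeq (GRCh38.p14), from 3.8 kb for CETN2 and 6.2 kb for ELOF1 to 137.4 kb for INO80 and 235.2 kb for MNAT1. Across the 29 genes Spearman's rho between span and log2 fold change was −0.752 (Cis) and −0.672 (Cis/TM) at 12 h and −0.649 (Cis) and −0.529 (Cis/TM) at 24 h. With TM alone it was −0.193 at 12 h and −0.07 at 24 h. Across 18392 genes with a span the values were, in the same order, −0.39, −0.307, −0.186 and −0.1 with cisplatin and −0.012 and −0.07 with TM alone. These are descriptions across genes, which share the arrays and are not independent replicates.

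The genes called lower in Cis 12 h had spans of 55.9 to 235.2 kb, and the genes called higher spans of 5.9 to 44.2 kb. Of the 10 longest genes, all of 51.7 kb or more, 8 had a negative difference in Cis 12 h, and of the 10 shortest, all of 31.0 kb or less, 1 did. In TM 12 h the counts were 2 and 2. Span also crosses the roles, since the transcription-coupled list holds both ELOF1 at 6.2 kb and ERCC8 at 78.6 kb, and the global-genome list both CETN2 and INO80. The exceptions were ERCC8 (0.24) and UVSSA (54.0 kb, 0.17) among the 10 longest, and GTF2H3 (28.8 kb, −0.12) among the 10 shortest.

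**Figure D4:**
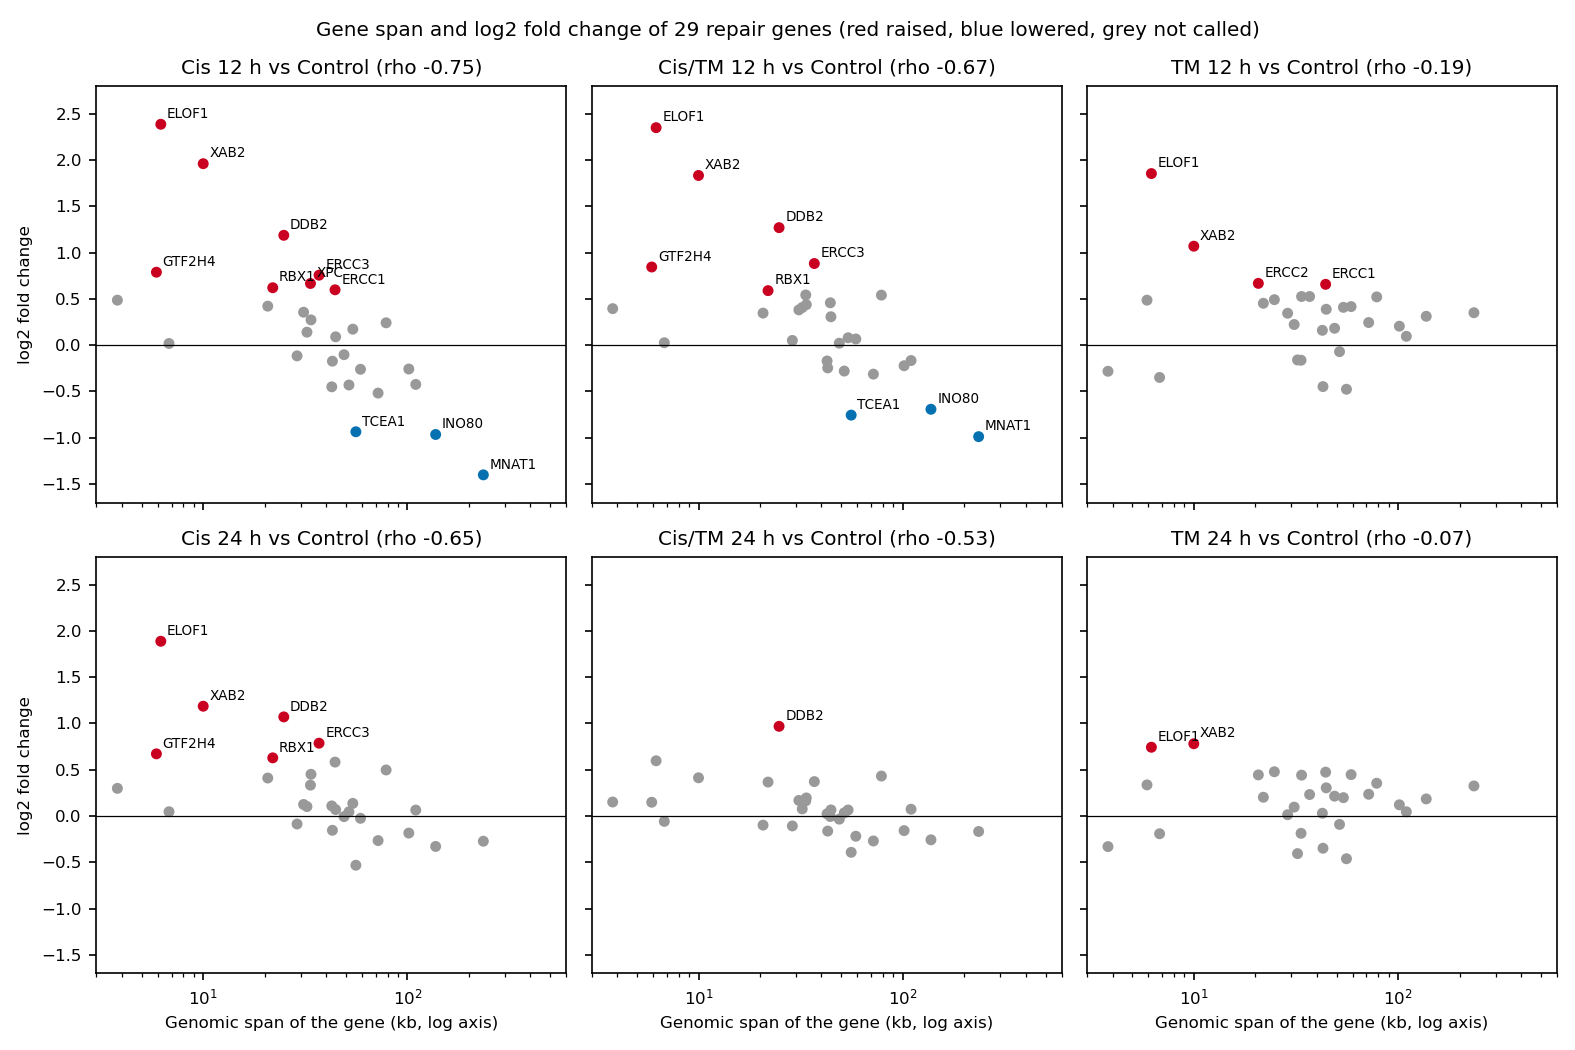
Log2 fold change against Control (y axis) and genomic span (x axis, kb, log axis) of the 29 repair genes in the 6 treatments, red for genes called higher, blue for lower and grey for not called, with Spearman's rho above each panel. In the 12 h panels with cisplatin the points run from ELOF1 at the upper left to MNAT1 at the lower right, with rho of −0.752 and −0.672, and the TM panels show no such order.

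Within the list of repair genes drawn up by function, the strongest departures from additivity lay on 1 chromosome. ELOF1, XAB2, ERCC1 and ERCC2 are the 4 measured members on chromosome 19, and their median departure was −0.997 at 12 h and −1.308 at 24 h. The other 25 genes had medians of −0.059 and −0.115, and all 1309 measured genes of chromosome 19 had −0.093 and −0.143, so the chromosome as a whole did not share the size of the departure. This grouping, like the spans and the promoters, was looked at after the values were known and was given no test.

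In the promoters, the ETS motif CCGGAAG was found in 8 of the 28 members that have an entry in the RefSeq table, 28.6%, beside 8.5% of all 35116 promoters of that length and 12.1% of the 14239 measured genes with an entry. GGGCGG was found in 17 members, 60.7%, beside 42.6% and 57.5%, and CCAAT in 10, 35.7%, beside 32.0% and 34.4%. The E2F motif TTTCCCGC was found in 1, XPC, beside 1.4% of all promoters, and the E2F motif TTTGGCGC and the p53 half-site in none, beside 0.5% and 5.6%. These are counts of letters and do not show that a factor binds.

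The later steps of the pathway, gap filling and ligation, together with further cofactors, were followed in a list of 41 other genes, of which 37 were measured. Most of the genes called here were higher. In Cis 24 h 21 of the 37 were called higher and none lower, and in Cis 12 h 12 higher and 1 lower, beside 14 and 10 higher at 12 h and 24 h of both drugs, 12 and 6 with TM alone, and none lower in these 4. Of all genes 11.5% were called higher in Cis 24 h and 14.8% in Cis 12 h, 15.2% and 4.54% with both drugs at 12 h and 24 h and 8.99% and 5.16% with TM alone, and 4.9% were lower in Cis 24 h and 10.8% in Cis 12 h.

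RFC2, a subunit of the clamp loader, rose by 1.20 ± 0.10 (SE, adjusted p = 1.8e-08) in Cis 12 h and 1.35 ± 0.10 (SE, adjusted p = 1.9e-08) in Cis 24 h. POLD2, a subunit of the gap-filling DNA polymerase delta, rose by 1.90 ± 0.18 (SE, adjusted p = 6.8e-08) and 1.48 ± 0.18 (SE, adjusted p = 4.9e-06), and RPA2, of the complex that shields the single strand, by 1.05 ± 0.12 (SE, adjusted p = 2.1e-06) in Cis 24 h. The median log2 fold change of the 37 genes was 0.66 in Cis 24 h, beside 0.11 for the 29 genes and −0.03 for all genes. The departure from additivity was below 0 and called in 7 of the 37 at 12 h and 13 at 24 h, beside 6.87% and 11.4% of all genes, above 0 in none, and with the smallest p in RFC2, −1.34 (adjusted p = 9.5e-06), and POLD2, −2.00 (adjusted p = 3.6e-05), at 24 h. POLD2 was also the only one of the 37 called lower in Cis/TM than in Cis at 24 h, by −0.71 (adjusted p = 0.0371).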

How the data were processed

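The data are 20 arrays (Affymetrix Human Gene 1.0 ST) of RNA from MDA-MB-231 cells in 7 groups. The authors summarized the probes with RMA and deposited log2 values for 33297 transcript clusters, which were used without further transformation. RMA narrows small differences where signal is low, and no background measure comes with a cluster. The genome build and the annotation behind the values are not given in the sources used here. Of the clusters, 21214 are named in the platform's probe-gene table, 19460 with 1 symbol and 1754 with several, and 12083 are unnamed. Clusters with 1 symbol gave 18417 genes, and a gene with several took the one of highest mean. The clusters of GTF2H4, and those of CDK7, hold identical values, and HMGN1 and TCEA1 each have a second cluster with its own values. The replicate letters and groups are those of the labels.

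The tests were those of limma 3.58.1 (R 4.3.3), from 1 linear model for 7 groups (13 residual degrees of freedom), eBayes and Benjamini-Hochberg adjustment over all genes. A call required both an adjusted p under 0.05 and more than a 1.5-fold change. The procedure was tested on simulated data, but the outcome is not given here and is not used as support for the calls. The methods name RMA, limma and a fold change over 1.5. Intervals are 95% and not adjusted, and the number of arrays limits the precision. Repair genes were grouped by role, and the members, lists and rules were chosen with earlier results of these data known. Values on the arrays of some or all groups are given for the 12 genes with the widest range of group means. The same holds for the 3 of smallest range and up to 6 called genes by p in each drug comparison or departure from additivity. RBX1 and a few repeated values were added to these after their values were seen. Of the other pathway genes, up to 4 called by p in a comparison are named. Gene spans and promoters are those of RefSeq (GRCh38.p14), and spans, motifs and chromosomes were examined after the values were seen. An NRF1 motif was also searched and is not reported. Rank correlations were computed in R 4.3.3, and figures were drawn with matplotlib 3.10.9 in Python 3.11.15. Alternatives were median centring, quantile normalization, removal of the trend with level (cyclic loess), leaving out the lowest 25% of genes, the mean of a gene's clusters, the compared groups only, eBayes with trend, unadjusted p, the replicate letter as a block, and leaving out each array.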

Additional observations from a re-analysis of the deposited data

Results flagged for a closer look

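Several repair genes responded differently to TM with and without cisplatin, tested as the departure from additive log2 changes. At 12 h the departure was −1.89 for ELOF1, −1.20 for XAB2, −0.80 for ERCC1 and 0.66 for TCEA1. At 24 h it was −2.03 for ELOF1, −1.55 for XAB2, −1.06 for ERCC1, −0.95 for ERCC2, −0.86 for GTF2H4, −0.70 for DDB1, −0.65 for ERCC3, −0.64 for CUL4A and 0.60 for TCEA1.

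The response to the same drug also differed between the times. From 12 h to 24 h of cisplatin MNAT1 changed by 1.13, INO80 by 0.64 and XAB2 by −0.77. Under both drugs ELOF1 changed by −1.75, XAB2 by −1.42, GTF2H4 by −0.70 and MNAT1 by 0.82. The Control arrays have no time, so a change of untreated cells over these hours cannot be told apart from these differences.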

How the results depend on the processing

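Each of 69 calls on a repair gene was repeated under 9 other settings and without each array in turn. None reversed, and 43 were called throughout, while 26 were lost in at least one setting. Of 270 counts of called repair genes under the other settings, 24 moved by over 1.5 times. The cause was not tested. With quantile normalization the count of higher genes was 5 in Cis 12 h (8 in the report), 2 in TM 12 h (4) and 2 for the departure from additivity at 24 h (1), and that of lower genes was 2 in TM 12 h (0), 1 in Cis 24 h (0) and 2 in Cis 24 h against TM 24 h (1). In the same order 12.1%, 6.04% and 5.39% of all genes were higher, and 3.21%, 5.02% and 3.59% lower. Once the trend with level was taken out, the higher genes numbered 5 (Cis 12 h), 2 (TM 12 h) and 1 (Cis 24 h against TM 24 h, 3 in the report), and 2 were lower in TM 12 h, 1 in Cis 24 h, 2 in Cis 24 h against TM 24 h and 5 in the departure at 24 h (8). Here 11%, 5.99% and 3.94% of all genes were higher in that order, and 2.93%, 4.95%, 3.81% and 7.94% lower. With median centring 0 were lower in Cis 24 h against TM 24 h, 4 were higher in Cis 24 h against Cis 12 h (2), and 0 were above additive at 12 h and 0 at 24 h. The shares of all genes were 2.96%, 9.45%, 2.22% and 3.91% in that order. With the compared groups only, 2 were higher in TM 12 h, 1 in TM 24 h (2) and 0 above additive at 12 h. Those shares of all genes were 6.56%, 3.51% and 2.17%. With eBayes with trend or unadjusted p 2 were higher in Cis/TM 24 h (1), with unadjusted p 1 was lower in TM 24 h against TM 12 h (0), and with the mean of clusters 0 were above additive at 24 h. Of all genes 4.6% were higher in Cis/TM 24 h under eBayes with trend. With the mean of clusters 5.11% were above additive at 24 h. Shares of all genes were not taken for unadjusted p or without single arrays.

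Without single arrays the higher genes numbered 2 to 8 in TM 12 h, 1 to 3 in TM 24 h, 1 to 2 in Cis/TM 24 h, 2 to 5 in Cis 24 h against TM 24 h, 1 to 3 in Cis 24 h against Cis 12 h, and 0 to 1 for the departure at 12 h and at 24 h. The lower genes numbered 0 to 1 in TM 12 h, 0 to 1 in Cis 24 h, 0 to 4 in Cis/TM 24 h against Cis 24 h, 3 to 7 in Cis 12 h against TM 12 h, 0 to 2 in Cis 24 h against TM 24 h and 1 to 2 in Cis 24 h against Cis 12 h. The arrays behind a lost call are named beside it in the report.

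The replicate letters did not pair the arrays. Over 57 pairs with the same letter the residuals correlated with r from −0.42 to 0.61 (median 0.01), and 6 of 20 arrays were closest to an array of their own letter. With the replicate block no call on a repair gene was lost or gained, with 8 higher and 3 lower in Cis 12 h and 8 lower in the departure at 24 h, as without it.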
